A study of Mus musculus with 1483 samples.

Results

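The clustered protocadherins are neuronal cell adhesion proteins encoded by 3 neighbouring gene clusters, alpha, beta and gamma. All gene columns named Pcdha, Pcdhac, Pcdhb, Pcdhga, Pcdhgb or Pcdhgc followed by a number were taken, which gave 58 of the 45768 genes in the table. They comprised 12 alternate alpha, 22 beta, 12 gamma A and 7 gamma B isoforms, plus 5 C-type isoforms: Pcdhac1 and Pcdhac2 of the alpha cluster and Pcdhgc3, Pcdhgc4 and Pcdhgc5 of the gamma cluster. In RefSeq's annotation of GRCm38.p6 they lie on chromosome 18 between positions 36930285 and 37841873, in the order alpha, beta, gamma. The alpha genes span 36930285 to 37188897, the beta genes 37264998 to 37521419 and the gamma genes 37661775 to 37841873.

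Each alpha or gamma isoform has its own first exon, with its own promoter, spliced to constant exons that the isoforms of a cluster share, while each beta gene is a single coding exon. Alternate isoforms are known for stochastic promoter choice, which depends on CTCF, cohesin and DNA methylation, so that neighbouring neurons carry different combinations. The proteins form mixed recognition units that bind like units on another membrane, which lets a neuron tell its own branches from those of other cells. C-type isoforms are known to be regulated by cell type instead, and Pcdhgc4 is known for supporting the survival of cortical interneurons, and Pcdhac2 for the spacing of serotonergic axons.

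Single cells were sorted for the fluorescent protein SYFP2 from tissue labelled VISp (primary visual cortex) of C57Bl/6J mice, each carrying a virus in which 1 enhancer drove SYFP2. The groups were the enhancers eHGT_017h, eHGT_019h, eHGT_023h, eHGT_058h, eHGT_078h, eHGT_079h, eHGT_128h, eHGT_140h and hDLXI56i with 3 mice each, eHGT_064h with 4 and eHGT_082h with 2. The labels give no age, and there was no group without virus. The 1483 cells held 833 to 1018507 reads (median 586338), the mouse was the replicate, and levels are the authors' CPM (reads of a gene per 1000000 reads of the cell), in which 1 read of the median cell was 1.71 CPM. Mice are numbered within an enhancer in the order of their identifiers.

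Cell classes were set from marker genes that are no members. GABAergic cells had Gad1 or Gad2 at 10 CPM or more without Slc17a7, glutamatergic cells the reverse, and a GABAergic cell entered the Pvalb, Sst, Vip or Lamp5 class when exactly 1 of those 4 genes reached 100 CPM. This gave 18.7% glutamatergic, 38.8% Pvalb, 14.4% Sst, 3.37% Vip and 10.4% Lamp5 cells, and left out 5.33% with both transmitters' markers, 7.48% with several class markers and 1.42% with none. A mouse entered a class with at least 5 cells, which left 9, 21, 12, 4 and 7 mice. By the rule, Gad1 and Gad2 were low in glutamatergic cells and Slc17a7 in interneurons, so their medians of 0 CPM cannot check the classes. Outside the rule, the median cell had 0 CPM of Slc32a1 in the glutamatergic class and of Neurod6 in each interneuron class. Of 3 markers per interneuron class, counting the gene that set the class, 3 reached 10 CPM in the median Pvalb cell. In the median Sst, Vip and Lamp5 cells 2 did, without Chodl, Cck and Ndnf respectively. Lamp5, Kcnc1 and Cck also reached 10 CPM in the median glutamatergic cell. Several markers reached it in other interneuron classes too, so they are not specific to their class. The Pvalb marker Kcnc1 did so in the median Sst, Vip and Lamp5 cells, and the Sst marker Elfn1 in the median Vip cell. The Vip marker Cck did so in the median Pvalb cell and the Lamp5 marker Reln in the median Sst cell. Both were higher there than in the median cell of their own class.

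Of the 58 members, 55 were detected in at least 1 cell. Pcdha4, Pcdha6 and Pcdha7 were at 0 in all 1483 cells, which by counting error alone allows up to 0.202% of cells with a read. Whether the authors' counting could assign reads to these genes is not given, so that limit may say nothing about their expression. The table also holds columns named Pcdha4-g, Pcdha6-g and Pcdha7-g, which were not members. They had reads in 59, 62 and 59 cells, at a median of 1.79, 2.07 and 2.11 CPM in those cells. Pcdhb1 had reads in 1 cell, at 7.24 CPM. These 4 members did not pass the filter of 1 CPM in 2 mice, and the other 54 were tested.

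Alternate isoforms were detected in few cells each and C-type isoforms in many. The median over the 53 alternate isoforms was 9.24% of cells, with a range of 0% to 25.2%. Pcdhb17 (25.2%) and Pcdhb20 (25.1%) were the most often detected alternates. Among C-types Pcdhac2 was detected in 68.4% of cells, Pcdhgc4 in 50.4%, Pcdhgc5 in 39.5%, Pcdhac1 in 21.8% and Pcdhgc3 in 14.2%. The 3 most widespread C-types thus exceeded every alternate isoform in share of cells.

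**Figure D1:**
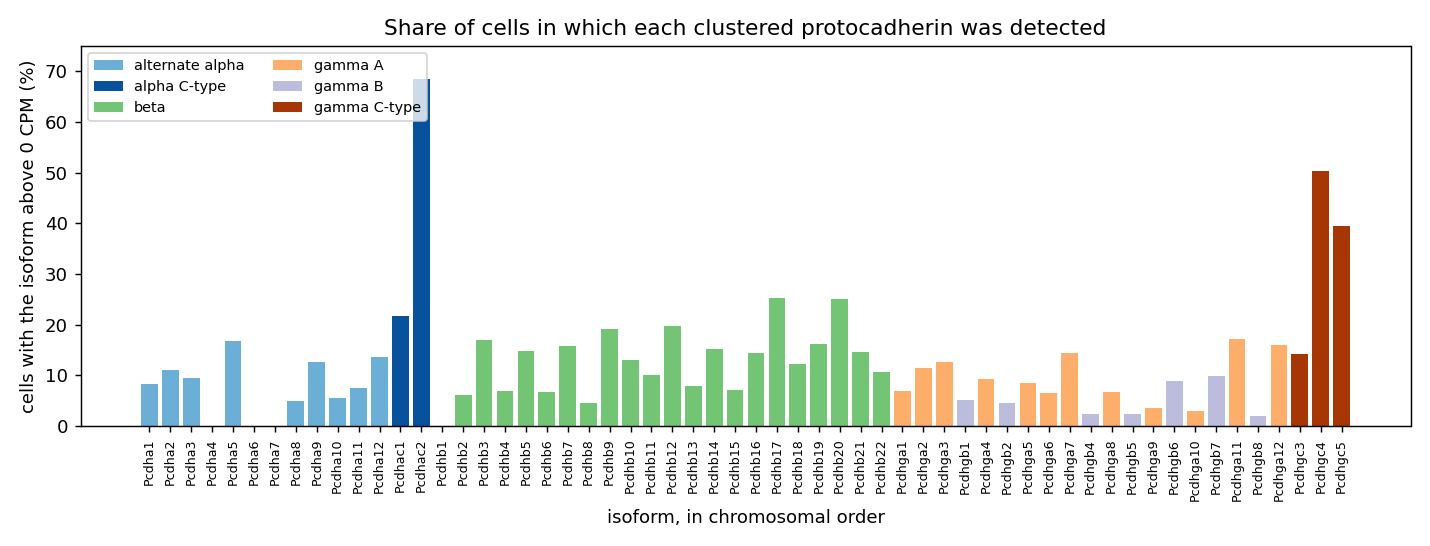
Percentage of the 1483 cells with each isoform above 0 CPM (vertical axis), with the 58 isoforms in chromosomal order (horizontal axis) and the bar colour giving the set. Pcdhac2 (68.4%), Pcdhgc4 (50.4%) and Pcdhgc5 (39.5%) stand above all alternates, the highest of which is Pcdhb17 (25.2%).

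Mean CPM over the 33 mice placed Pcdhb9 highest among beta isoforms, at 16.7 ± 7.42 (SD, n = 33), and Pcdhb1 lowest, at 0.00563. Among alternate alpha isoforms Pcdha9 was highest, at 4.13 ± 2.31 CPM, and Pcdha8 lowest of those detected, at 0.478 ± 0.452. Pcdhga7 led the gamma A set with 6.08 ± 4.84 CPM and Pcdhga10 was last with 0.517 ± 0.577. In the gamma B set Pcdhgb6 (1.60 ± 0.912 CPM) was highest and Pcdhgb8 (0.270 ± 0.433) lowest. Of the C-types, Pcdhac2 had 34.6 ± 18.2 CPM, Pcdhgc4 19.1 ± 10.7, Pcdhgc5 11.3 ± 10.7, Pcdhac1 5.56 ± 3.12 and Pcdhgc3 2.05 ± 1.96. Neighbours within these orders differed by less than the SD over mice in most cases and were not tested.

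Levels of different isoforms can be compared per length alone, and here the length is that of the sequence an isoform shares with no other transcript (50-base windows found once in the GENCODE M21 transcripts). Per kilobase of such sequence, the mean level was 11.4 CPM for Pcdhac2, 6.09 for Pcdhb9, 5.43 for Pcdhgc4 and 2.34 for Pcdhgc5. Pcdhb12 came to 10.998 CPM per kilobase, but 35.8% of its windows were its own, so its value is uncertain. Alpha and gamma isoforms share constant exons, and the share of windows of their own was 39.2% for Pcdha1, 62.9% for Pcdhgc4 and 1.02% for Pcdhga10. How the authors' counting assigned reads from the shared exons is not given in the sources used here, so levels of alpha and gamma isoforms, Pcdhga10 above all, are uncertain by that assignment.

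In the cells that carried them, the median level was 41.8 CPM for Pcdhac2, 30.3 for Pcdhgc4, 21.8 for Pcdhac1, 19.8 for Pcdhgc5 and 9.74 for Pcdhgc3. Among alternates it was highest for Pcdhb9, at 68.6 CPM, and lowest for Pcdhb13, at 4.46. These CPM are not scaled for length. The 5% of cells with the most reads of an isoform held 54.9% of all Pcdhb9 and 93.4% of all Pcdha1, but 22.1% of all Pcdhac2 and 29.4% of all Pcdhgc4. Reads of Pcdhb9 and Pcdha1 thus came from a smaller share of cells than those of these C-types.

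A cell had a mean of 7.17 ± 1.22 isoforms above 0 CPM (SD over 33 mice, range 3.58 to 9.10). Of these, 5.23 ± 0.815 were alternates and 1.94 ± 0.476 were C-types. Single cells ranged from 0 isoforms (1 cell) to 18 (1 cell), and 7 and 8 isoforms were the commonest counts, at 13.6% of cells each. With each cell thinned to 200000 reads, the mean was 6.50 ± 1.13, with 33 shallower cells left out. At a limit of 10 CPM it was 5.45 ± 1.03.

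Within a set, choice was sparse for alpha and gamma and broader for beta. An alternate alpha isoform was detected in 63.3% of cells, and 65.3% of those cells had exactly 1. A gamma A isoform was detected in 72.8% of cells, of which 55.6% had 1, and a gamma B isoform in 30.7%, of which 86.4% had 1. At least 1 beta isoform was detected in 96.3% of cells, with a median of 3 and a highest count of 8, and 17.02% of those cells had 1. The sets differ in size, and an isoform below detection in a cell counts as absent here.

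Nearly every cell had its own combination of detected alternates. The 1476 cells with any alternate isoform held 1435 distinct combinations, and 1405 cells (95.2%) had one found in no other cell. With detection set at 10 CPM, 1455 cells held 1321 combinations, and 86.05% of these cells had one of their own. The commonest combination was shared by 5 cells above 0 CPM and by 10 cells at 10 CPM or more. With few of many alternates detected in each cell, shared combinations are rare in any case, so these shares do not show how a combination arose. Missed reads and reads from other cells both alter such counts, and their part was not tested.

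Pairs of cells from the same class overlapped slightly more than pairs from different classes. No alternate isoform was shared by 47.3% of pairs from the same mouse and class and by 47.1% of pairs from the same class in different mice. The share was 52.4% for pairs from the same mouse and different classes and 51.3% for different mice and classes. The mean overlap (shared isoforms as a percentage of those in either cell) was 7.78%, 7.68%, 6.97% and 6.95% in the same order. A shared mouse thus changed these values by less than a shared class did, as a description without a test. Pairs were pooled over classes that differ in cell number and in alternates detected per cell. The part of these differences in the overlap was not tested.

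Over the 1483 cells, co-detection of 2 isoforms was measured by phi, the correlation of present and absent, for the 53 isoforms with at least 30 positive cells. The highest values were those of adjacent genes: 0.26 for Pcdhb21 and Pcdhb22, 0.24 for Pcdhb2 and Pcdhb3, 0.23 for Pcdhac1 and Pcdhac2, 0.22 for Pcdha1 and Pcdha2 and 0.21 for Pcdhb16 and Pcdhb17. The median over 43 pairs of adjacent alternates was 0.010, and over 801 alternate pairs from different sets 0.0043. The adjacent C-types Pcdhgc4 and Pcdhgc5 had a phi of -0.12. All these values are weak and come from sparse counts, the pairs share libraries and depth, and adjacent genes can share sequence and therefore reads. Cells of all classes were pooled, and the part of class differences in phi was not tested.

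By enhancer, isoforms per cell ranged from 5.19 ± 1.96 in hDLXI56i (n = 3 mice) to 8.37 ± 0.0748 in eHGT_082h (n = 2) and 8.14 ± 0.267 in eHGT_128h (n = 3). The hDLXI56i mice had 3.58, 4.62 and 7.38 isoforms per cell, so that 2 of them lay below every mouse of the other enhancers, the lowest of which had 4.90, and 1 within their range. The same enhancers were at the ends in median genes per cell, with 8788 in hDLXI56i and 10249 in eHGT_082h, but not in between: eHGT_017h had 8931 genes and 7.35 isoforms, and eHGT_078h 10145.5 genes and 6.70 isoforms. Thinned to 200000 reads, hDLXI56i had 4.66 ± 1.77 and eHGT_082h 7.51 ± 0.0849. The part of genes per cell in these values was not tested, and tests that use hDLXI56i mice were repeated without them.

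**Figure D2:**
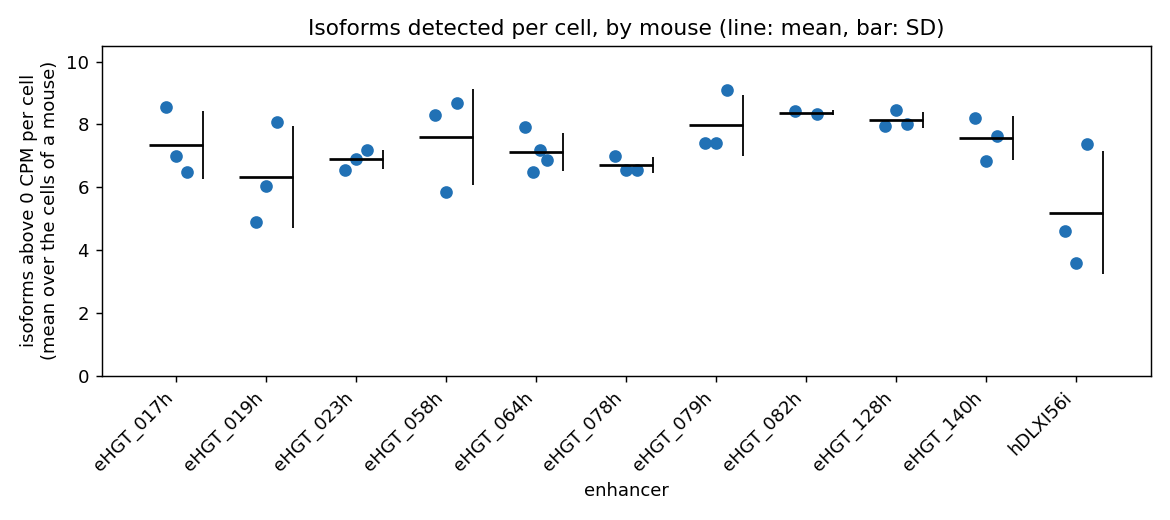
Isoforms above 0 CPM per cell, averaged over the cells of each mouse (vertical axis, points), for the 11 enhancers (horizontal axis), with lines at the mean and bars of 1 SD over mice. The eHGT_128h mice lie close together around 8.14, while the hDLXI56i mice spread from 3.58 to 7.38.

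Over classes, isoforms per cell were 7.46 ± 1.45 in Pvalb (n = 21), 7.08 ± 1.52 in Sst (n = 12), 6.84 ± 0.917 in glutamatergic (n = 9), 6.13 ± 1.76 in Lamp5 (n = 7) and 5.71 ± 0.912 in Vip cells (n = 4). Neighbours in this order differed by less than 1 SD. Vip cells also had the fewest genes, with a median of 7881.5 against 10156.5 in glutamatergic cells. Alternates alone came to 5.27 ± 0.792 in glutamatergic, 5.26 ± 1.13 in Sst and 5.24 ± 1.02 in Pvalb cells, and to 4.61 ± 0.825 in Vip and 4.60 ± 1.07 in Lamp5 cells. C-types came to 2.22 ± 0.484 in Pvalb, against 1.10 ± 0.284 in Vip cells.

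Summed over all members, the level was 253.3 ± 56.4 CPM (n = 33 mice). It was highest in eHGT_017h, with 336.1 ± 44.2 CPM, and lowest in eHGT_023h, with 193.4 ± 3.31 (n = 3 each). The library names of all eHGT_023h mice have the letter J after SM-, and those of all eHGT_017h mice the letter G. Over all mice, 24 had G and 9 had J. What the letter stands for is not given, and it cannot be told apart from the enhancer in these groups. The summed beta level was 122.3 ± 28.4 CPM, gamma A 30.4 ± 12.5, alternate alpha 21.7 ± 7.06 and gamma B 6.33 ± 3.58, beside 72.6 ± 25.5 for the 5 C-types. C-types summed to 87.96 ± 29.5 CPM in Pvalb cells and 48.5 ± 16.6 in glutamatergic cells, while alternates summed to 253.8 ± 41.4 in Vip cells and 149.6 ± 28.02 in glutamatergic cells. Vip cells therefore had the fewest isoforms per cell beside the highest summed alternate level.

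Which isoforms differ between glutamatergic neurons and interneurons was tested on the mean profile of each class in each mouse. The largest differences were in Pcdhgc4 and Pcdhgc5, adjacent C-type genes of the gamma cluster, which moved in opposite directions. Of the 54 members tested, 4 were higher and 3 lower in glutamatergic cells than in the mean of the 4 interneuron classes (limma, Benjamini-Hochberg adjusted p under 0.05 and a log2 difference of at least 1). Of all 20927 genes, 15.3% were called, 10.7% higher and 4.66% lower, so 7 of 54 members is near the background. The median log2 difference was -0.06 over the members and 0.07 over all genes. Fold changes are on the log2(CPM + 1) scale, which understates those of low genes.

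Pcdhgc4, known for interneuron survival, was low in every glutamatergic profile. The 9 mice had 0, 0.0382, 0.221, 0.394, 1.08, 1.51, 2.65, 3.61 and 5.78 CPM of Pcdhgc4. The Pvalb class ranged from 6.51 to 42.5 CPM (median 21.8, n = 21) and Sst from 9.34 to 61.8 (median 17.3, n = 12). The 4 Vip mice had 3.34, 29.3, 34.9 and 48.7 CPM, and Lamp5 ranged from 0.348 to 37.2 (median 13.03, n = 7). The glutamatergic values lay below all Pvalb and Sst values and overlapped with 1 Vip and 1 Lamp5 mouse. The difference was -3.08 ± 0.35 (log2, SE), with an adjusted p of 8.93e-11 (limma). Pcdhgc4 was detected in 6.91% of glutamatergic cells and in 64.03% of Pvalb, 63.4% of Sst, 48.1% of Vip and 35.2% of Lamp5 cells (means over mice). Thinned to 200000 reads, these shares were 4.11%, 59.7%, 60.6%, 47.9% and 33.3%.

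Pcdhgc5 showed the reverse. The glutamatergic mice had 15.6, 19.6, 20.5, 23.6, 25.1, 25.7, 40.3, 40.3 and 46.8 CPM of Pcdhgc5. Pvalb ranged from 0 to 19.3 CPM (median 3.32), Sst from 4.68 to 31.3 (median 9.05) and Lamp5 from 4.02 to 18.4 (median 6.30). The 4 Vip mice had 0, 0, 3.84 and 4.999 CPM. All 9 glutamatergic values lay above all Vip values, 6 of them lay within the range of Sst, and the lowest within those of Pvalb and Lamp5. The difference was 2.42 ± 0.33 (log2, SE; adjusted p = 1.35e-08, limma). Cells with Pcdhgc5 made up 80.2% of glutamatergic, 46.1% of Sst, 29.3% of Lamp5, 24.7% of Pvalb and 11.7% of Vip cells (means over mice).

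**Figure D3:**
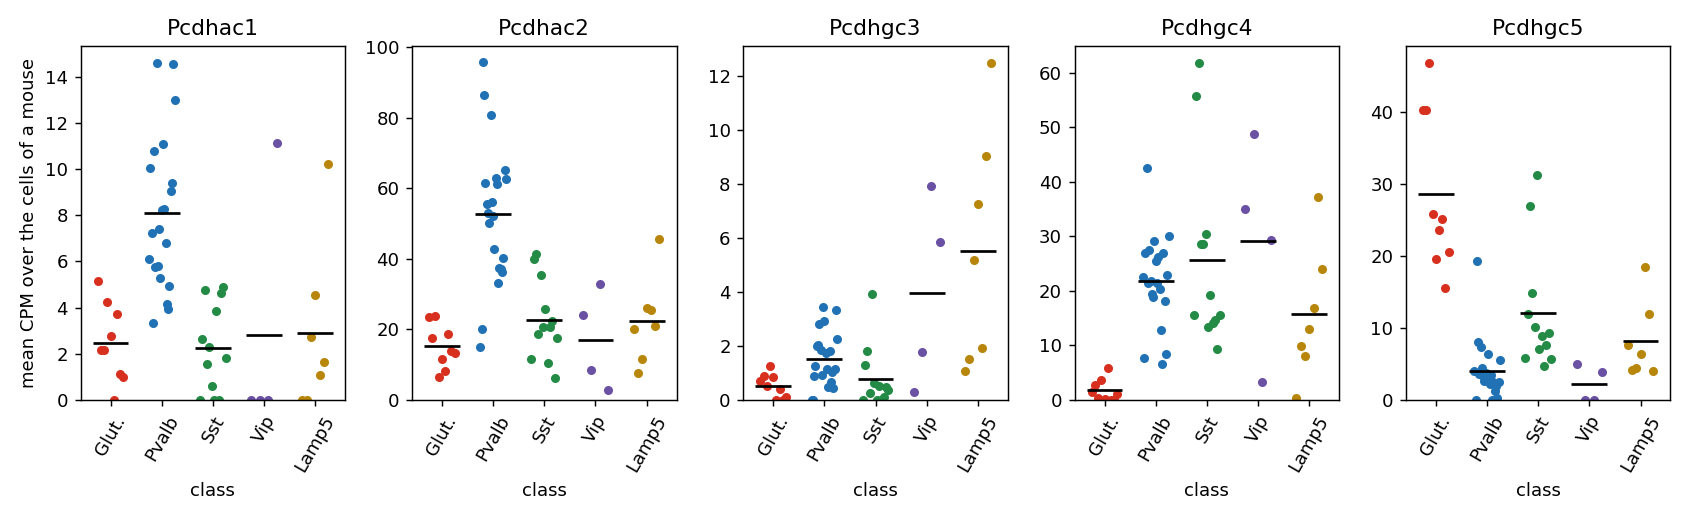
Mean CPM of each C-type isoform over the cells of a class in 1 mouse (vertical axis, 1 point a mouse, lines at class means) for the 5 classes (horizontal axis; each panel has its own scale). Pcdhgc4 is lowest in glutamatergic profiles (mean 1.70 CPM), Pcdhgc5 highest there (28.6 CPM), and Pcdhac2 highest in Pvalb profiles (52.6 CPM).

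The opposite differences of Pcdhgc4 and Pcdhgc5 were also present between cells of the same mouse. Of the mice, 6 had at least 5 glutamatergic and 5 GABAergic cells, 3 of eHGT_058h and 3 of eHGT_023h. In eHGT_058h, Pcdhgc4 was 0.394, 3.61 and 0.0382 CPM in glutamatergic and 34.9, 15.5 and 40.9 in GABAergic cells. In eHGT_023h it was 0.221, 5.78 and 0 against 12.01, 9.98 and 16.01 CPM, with 6 glutamatergic cells in the mouse at 5.78. Pcdhgc5 was 46.8, 25.7 and 25.1 CPM in glutamatergic and 9.65, 14.01 and 8.29 in GABAergic cells of eHGT_058h. In eHGT_023h it was 19.6, 23.6 and 15.6 against 4.52, 2.29 and 2.73 CPM. Pcdhgc4 was lower and Pcdhgc5 higher in glutamatergic cells in all 6 mice. With mouse as a fixed effect across the class profiles of all mice, the log2 differences were -2.80 for Pcdhgc4 and 2.71 for Pcdhgc5. That fit is not restricted to these 6 mice. No mouse had both a glutamatergic and a Vip profile, and of the Lamp5 mice eHGT_058h mouse 1 alone had a glutamatergic one. Much of that contrast is therefore linked through other classes and not within a mouse.

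**Figure D4:**
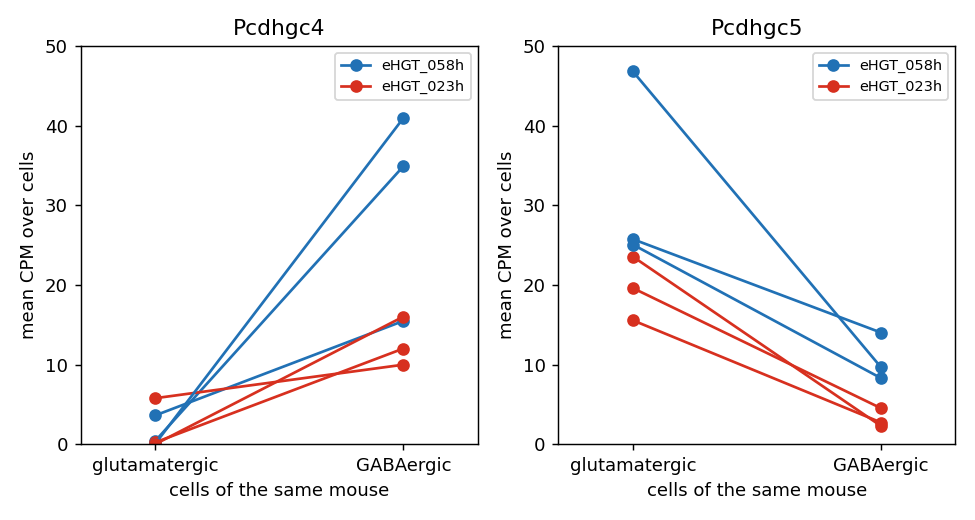
Mean CPM of Pcdhgc4 and Pcdhgc5 (vertical axis) in glutamatergic and GABAergic cells of the same mouse (horizontal axis), with a line for each of 3 eHGT_058h and 3 eHGT_023h mice. All 6 lines rise for Pcdhgc4 and fall for Pcdhgc5.

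In combination, 77.3% of the glutamatergic cells had Pcdhgc5 without Pcdhgc4, and 1.80% had Pcdhgc4 alone. Among Pvalb cells, 47.5% had Pcdhgc4 without Pcdhgc5 and 7.13% the reverse. Sst cells had both in 33.2%, Pcdhgc4 alone in 32.7% and Pcdhgc5 alone in 16.4% of cells. Neither was detected in 60% of Vip cells and 49.4% of Lamp5 cells, against 15.5% of glutamatergic cells. These shares are over cells pooled from mice that gave unequal numbers.

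The third gamma C-type, Pcdhgc3, was also lower in glutamatergic cells, at 0.517 ± 0.434 CPM (n = 9) against 0.781 ± 1.13 in Sst, 1.53 ± 1.02 in Pvalb, 3.96 ± 3.54 in Vip and 5.49 ± 4.34 in Lamp5. Its log2 difference of -1.002 ± 0.27 (adjusted p = 0.00227, limma) lay at the limit of 1, and leaving out any of 17 of the 33 mice ended the call, with differences from -1.15 to -0.88. The alpha C-types were not called: Pcdhac2 differed by -0.59 ± 0.27 (adjusted p = 0.0733) and Pcdhac1 by -0.11 ± 0.35 (adjusted p = 0.829).

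Among alternates, Pcdha12, the last alternate alpha gene, was higher in glutamatergic cells. Its 9 mice ranged from 2.77 to 15.1 CPM (median 7.65), and the interneuron class means were 1.98 to 2.63 CPM, with single mice up to 11.6. The log2 difference was 1.63 ± 0.37 (adjusted p = 0.000219, limma), and 26.7% of glutamatergic cells had Pcdha12 against 6.93% to 11.5% in the interneuron classes. Pcdhga9 was at 1.55 ± 1.19 CPM in glutamatergic cells and at 0 to 0.403 in the interneuron class means, with a log2 difference of 1.02 ± 0.19 (adjusted p = 7.07e-06). Its call ended without eHGT_078h mouse 1 or without eHGT_058h mouse 2 or 3, and without the hDLXI56i mice (log2 differences of 0.91 or more). Pcdhga12, the last gamma A gene, was at 5.77 ± 2.82 CPM, with a log2 difference of 1.13 ± 0.32 (adjusted p = 0.00382). That call ended without eHGT_058h mouse 1 (0.99) or without the hDLXI56i mice. Pcdha2 was lower, at 0.836 CPM against a mean of 4.73 over interneuron classes (log2 -1.16 ± 0.41, adjusted p = 0.0202), a call that ended without eHGT_019h mouse 3 (-0.96). With mouse as a fixed effect, the calls of Pcdhga9, Pcdhgc3 and Pcdha2 ended. None of 21 beta and 7 gamma B isoforms tested was called. For the 54 members, 15 had an unadjusted p under 0.05, and limma voom on reads recovered from the CPM called 12.

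Markers of other cell types differed between the classes too. The summed level of 5 astrocyte markers was 4.84 to 78.4 CPM in glutamatergic profiles (median 29.2), against medians of 1.41 in Pvalb, 2.66 in Sst, 20.6 in Vip and 11.3 in Lamp5. The 5 oligodendrocyte markers had a median of 119 CPM in glutamatergic profiles and of 27.7 to 41.8 in the interneuron classes. In the median cell, all 5 astrocyte markers were at 0 in each class. Of the 5 oligodendrocyte markers, 4 were at 0 in the median glutamatergic, Pvalb and Sst cell, and all 5 in the median Vip and Lamp5 cell. Mbp, an oligodendrocyte marker, was detected in 67.8% of all cells. The part of these differences in the members' results was not tested.

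Within the interneurons, each class was set against the mean of the other 3. Pvalb cells were marked by the alpha C-types. Pcdhac2 ranged from 14.96 to 95.7 CPM in 21 Pvalb mice (median 52.9), against 6.10 to 41.2 in Sst, 7.61 to 45.5 in Lamp5 and 2.62 to 32.8 in Vip. Most Pvalb mice lay above all other interneuron profiles, with some overlap. The log2 difference was 1.49 ± 0.22 (adjusted p = 1.19e-07, limma), and 84.7% of Pvalb cells had Pcdhac2. Pcdhac1 ranged from 3.31 to 14.6 CPM (median 7.39) in Pvalb, with class means of 2.25 in Sst, 2.79 in Vip and 2.88 in Lamp5. Its log2 difference was 1.84 ± 0.29 (adjusted p = 4.19e-07). It was detected in 33.6% of Pvalb cells and in 1.67% to 9.92% of cells of the other interneuron classes.

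In Pvalb, 5 members were called, 3 higher and 2 lower, beside 9.99% of all genes (4.69% higher and 5.3% lower). The other calls were smaller. Pcdhb9 was lower, at 11.8 CPM against 28.4 (log2 -1.14 ± 0.37, adjusted p = 0.0115, limma), a call that ended with pseudocount 0.1 or 10. Pcdhga2 was also lower, at 1.74 against 5.93 CPM (-1.11 ± 0.33, adjusted p = 0.00613), until hDLXI56i mouse 3 or eHGT_017h mouse 3 was left out (differences from -1.38 to -0.96). Pcdhb3 was called higher at 1.01 ± 0.34 (adjusted p = 0.0143), although its class means were 6.92 CPM in Pvalb and 7.26 over the others. That call ended without any of 12 mice and without the hDLXI56i mice. With mouse as a fixed effect, all 3 of these calls ended. Pcdhgc4, with 21.7 ± 8.36 CPM in Pvalb, did not pass (0.26 ± 0.29, adjusted p = 0.536).

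Sst cells had 5 members higher and 2 lower, 7 of 54, beside 7.77% of all genes (3.93% higher and 3.85% lower). Pcdhgc5 was higher among interneurons here, at 11.99 ± 8.53 CPM (n = 12) against a mean of 4.80 (log2 1.46 ± 0.31, adjusted p = 0.000217, limma). Pcdhga12 ranged from 0.695 to 13.7 CPM (median 5.20) against class means of 1.56 in Pvalb, 2.67 in Vip and 2.10 in Lamp5 (1.40 ± 0.31, adjusted p = 0.000305). The beta isoforms Pcdhb3 (14.4 against 4.76 CPM), Pcdhb6 (3.999 against 0.905) and Pcdhb19 (9.67 against 2.53) were higher as well. Pcdhgc3 was lower (-1.18 ± 0.26, adjusted p = 0.000305), and so was Pcdha9 (-1.22 ± 0.35, adjusted p = 0.00705), the latter until eHGT_019h mouse 3 was left out (-0.93). The call of Pcdhb19 ended under 6 alternatives (pseudocount 0.1 or 10, mouse as a fixed effect, a class marker threshold of 10 CPM, at least 10 cells per profile, and voom), and that of Pcdhb6 with pseudocount 10 or at least 10 cells. With mouse as a fixed effect, that of Pcdha9 ended too. Oligodendrocyte markers reached 3538 CPM in 1 Sst profile, and their part in these calls was not tested.

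Lamp5 cells were marked by Pcdhb7, a beta isoform. Its 7 mice had 15.2, 23.9, 29.2, 32.05, 33.2, 62.7 and 77.7 CPM of Pcdhb7. Pvalb had 5.56 ± 3.41 CPM (n = 21, highest 12.7), Sst 9.20 ± 8.15 (n = 12, highest 28.9) and glutamatergic cells 6.65 ± 4.37 (n = 9, highest 13.01). The 4 Vip mice had 0, 0, 0.346 and 39.1. All Lamp5 mice lay above all Pvalb and glutamatergic mice. The log2 difference from the other interneuron classes was 2.92 ± 0.49 (adjusted p = 3.45e-06, limma), and it was between 2.73 and 3.31 with any single mouse left out. Pcdhb7 was detected in 27.2% of Lamp5 cells against 15.3% of Pvalb cells.

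In all, Lamp5 had 6 members higher and 2 lower of 54, beside 10.6% of all genes (6.42% higher and 4.22% lower). Pcdhb20 (14.2 against 7.71 CPM, log2 1.49 ± 0.43, adjusted p = 0.00653) was higher and Pcdhb3 (1.72 against 8.99 CPM, -1.81 ± 0.46, adjusted p = 0.00177) lower, and both calls were lost without the hDLXI56i mice. Pcdhgc3 was higher, at 5.49 ± 4.34 CPM (log2 1.17 ± 0.31, adjusted p = 0.00268, limma), with mice from 1.07 to 12.5. That call ended without eHGT_019h mouse 3 or eHGT_058h mouse 1 (lowest 0.95). By enhancer, Pcdhgc3 in Lamp5 cells was 5.17 to 9.05 CPM in the 3 eHGT_019h mice and 1.07 to 1.91 in the 3 hDLXI56i mice. The hDLXI56i mean of 1.49 lay within the enhancer means of Pvalb cells, 0.291 (hDLXI56i) to 2.28 (eHGT_082h). This split was not tested. Pcdha11, Pcdhgb1 and Pcdha9 (higher) and Pcdhb5 (lower) were called with adjusted p of 0.00823 to 0.0476, and each call ended when any of 4 to 17 single mice was left out. Those of Pcdha11, Pcdha9 and Pcdhb5 also ended without the hDLXI56i mice. With mouse as a fixed effect, the calls of Pcdhb20, Pcdhb3, Pcdha9, Pcdhb5 and Pcdhgb1 ended. Pcdhgc4 (-0.89 ± 0.39, adjusted p = 0.0934) and Pcdhgc5 (0.80 ± 0.37, adjusted p = 0.115) did not pass.

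The Vip class rests on 4 mice with 6, 6, 8 and 15 cells, and had 2 members higher and 6 lower, beside 13.3% of all genes (6.16% higher and 7.12% lower). The median log2 difference was -0.24 over the members and -0.13 over all genes. Pcdhb20 was at 0 in 3 mice and at 5.39 CPM in the other, against 11.98 over the other classes (log2 -2.62 ± 0.53, adjusted p = 9.56e-05, limma). That call ended with mouse as a fixed effect, as did those of Pcdhb7 and Pcdhgb6, and with at least 10 cells per profile. Pcdhgc5 was lower (-1.71 ± 0.46, adjusted p = 0.00325), a call that ended without eHGT_019h mouse 3 or eHGT_017h mouse 1 (-1.27 at the smallest). Pcdhgb6 was higher, with 0.688, 1.66, 13.05 and 16.1 CPM against 1.16 (1.59 ± 0.42, adjusted p = 0.00277), a call that ended without eHGT_019h mouse 3 (adjusted p above the threshold, differences of 1.0002 to 2.12 over all mice left out). Pcdhb7, Pcdhac2, Pcdha11 and Pcdhga5 (lower) and Pcdhga8 (higher) were called with adjusted p of 0.00746 to 0.0456, and each call ended when at least 2 single mice were left out in turn, eHGT_017h mouse 3 in each case. Without that mouse the difference of Pcdhac2 was -0.54, against -1.17 with it. The calls of Pcdhb7, Pcdha11, Pcdhga5 and Pcdhga8 also ended without the hDLXI56i mice. Those of Pcdhga5 and Pcdhga8 each ended under 7 of 10 alternatives. By voom, 3 members were called in the Vip class.

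**Figure D5:**
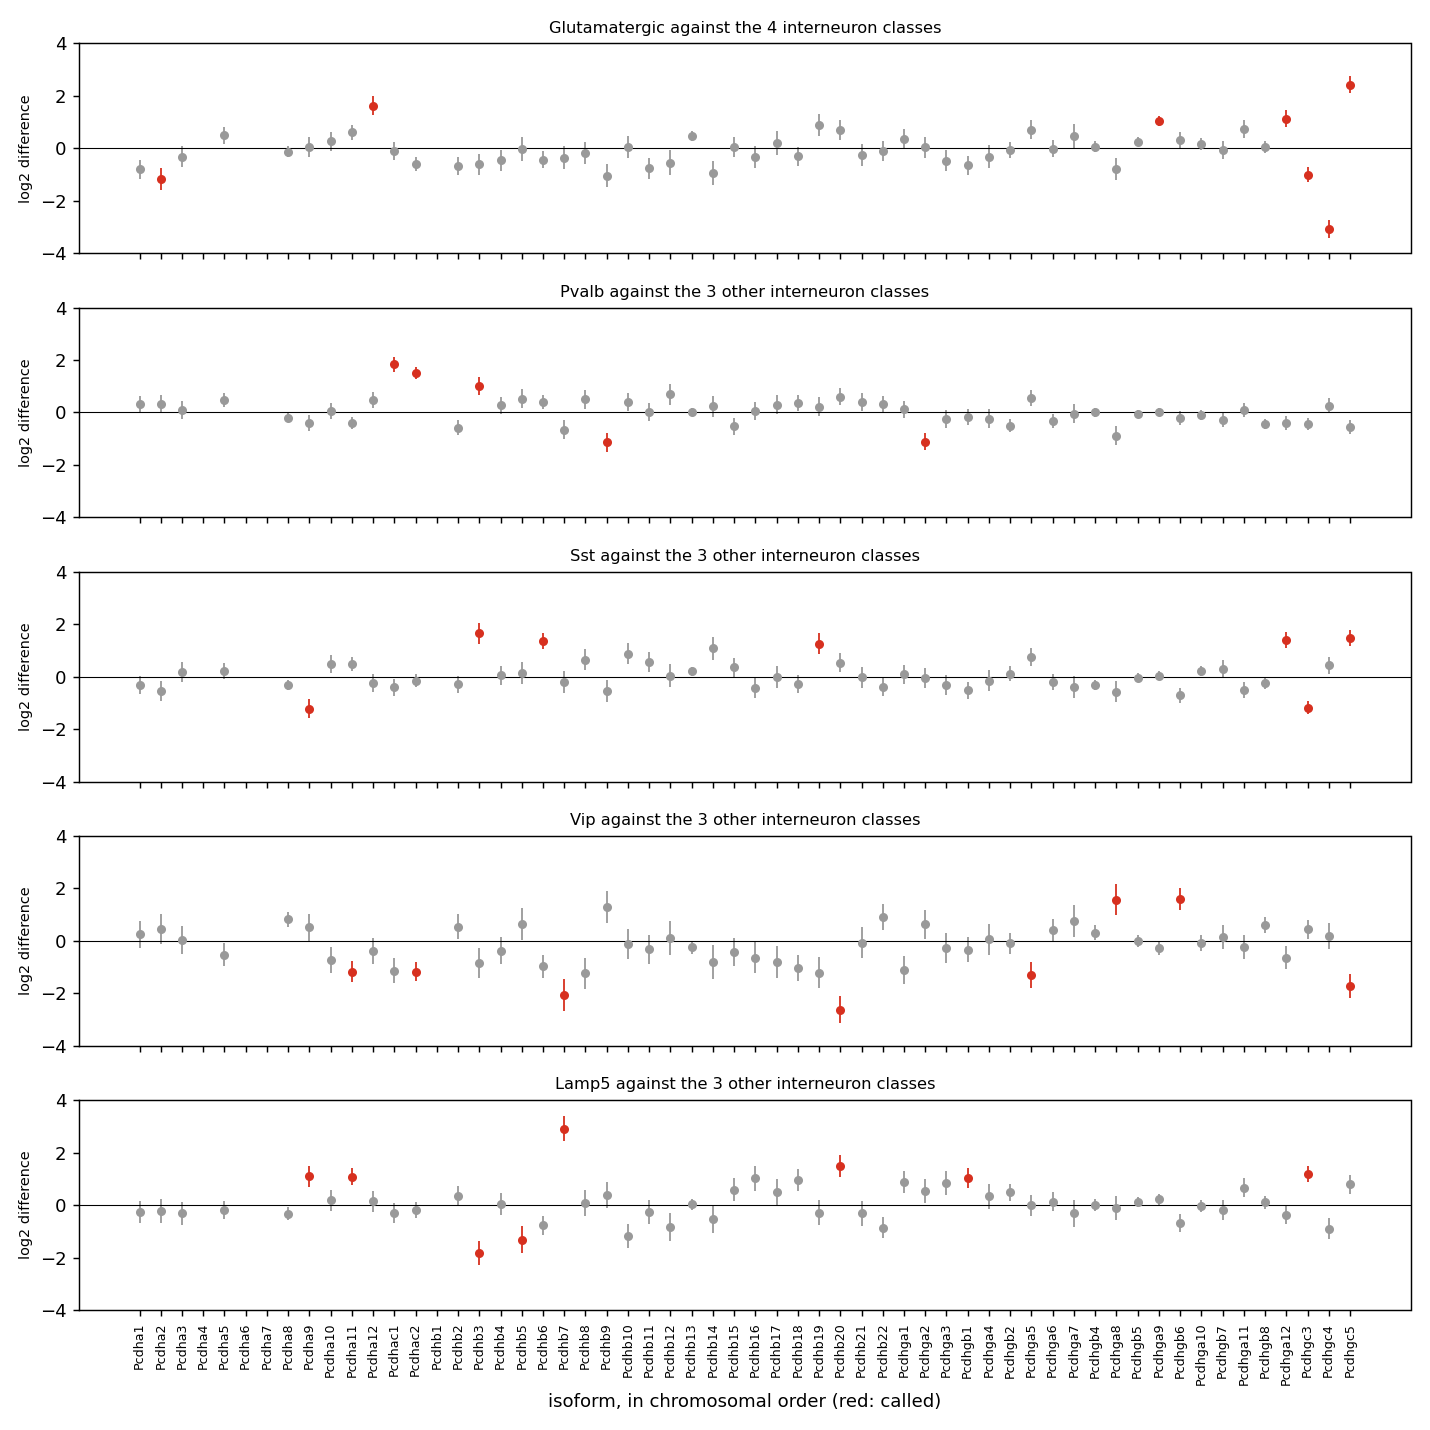
Log2 difference of each tested isoform (vertical axis, bars of 1 SE) between a class and the mean of the others, with isoforms in chromosomal order (horizontal axis) and called isoforms in red. Pcdhgc4 (-3.08) and Pcdhgc5 (2.42) are the extremes of the glutamatergic panel, Pcdhac1 (1.84) and Pcdhac2 (1.49) of the Pvalb panel and Pcdhb7 (2.92) of the Lamp5 panel.

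Over the 5 class contrasts, 40% of the 25 pairs of C-type isoform and class were called, and 10.2% of the pairs of alternate isoform and class. Of all genes, 7.77% (Sst) to 15.3% (glutamatergic) were called in a contrast, so the share of alternates lay within that range. In all, 23 members were called at least once. The contrasts of interneuron classes share their mice, so these counts are not independent.

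Between the 11 enhancers, 11 of 54 members differed (limma F test, adjusted p under 0.05), beside 53.4% of the 18932 genes tested. All 5 C-types were among them: Pcdhgc4 (adjusted p = 4.75e-07), Pcdhgc3 (2.70e-05), Pcdhgc5 (4.50e-05), Pcdhac1 (0.000576) and Pcdhac2 (0.00171). The others were Pcdhga12 (0.000644), Pcdhb3 (0.00176), Pcdhb4 (0.00368), Pcdhb7 (0.0102), Pcdhgb5 (0.0159) and Pcdhb14 (0.0331). The call of Pcdhb7 ended without eHGT_019h mouse 2 (adjusted p = 0.0584), and that of Pcdhb14 without any of 6 mice. None of the 9 alternate alpha isoforms tested was called.

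The enhancers with the largest shares of Pvalb cells had the highest levels of Pcdhac2. Pcdhac2 was 58.6 ± 6.57 CPM in eHGT_140h (n = 3), 55.5 ± 5.39 in eHGT_082h (n = 2), 55.3 ± 17.2 in eHGT_079h and 54.5 ± 4.35 in eHGT_128h (n = 3 each). Pvalb cells made up 91.97%, 80.5%, 61.7% and 81.6% of those groups. Their means differed by less than the spread in eHGT_079h. The other enhancers had 18.04 ± 4.88 (eHGT_078h) to 29.5 ± 8.54 (eHGT_064h) CPM. Enhancer and class composition cannot be told apart in these means. Within a class, C-type levels also differed between enhancers, which was not tested. In Pvalb cells Pcdhac2 was 36.7 ± 0.724 CPM (eHGT_023h, n = 2) to 62.8 ± 19.1 (eHGT_079h, n = 3). In Sst cells Pcdhgc4 was 11.7 ± 3.36 CPM (eHGT_023h, n = 2) to 39.6 ± 19.2 (eHGT_017h, n = 3). In Lamp5 cells Pcdhgc3 was 7.16 ± 1.94 CPM in eHGT_019h and 1.49 ± 0.418 in hDLXI56i (n = 3 each).

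In eHGT_078h, where 97.1% of cells were glutamatergic, Pcdhgc4 was 2.17 ± 0.573 CPM (range 1.51 to 2.54), against 8.82 to 33.3 in the other enhancer means. All 3 mice lay below every mouse of the other enhancers, the lowest of which had 5.48 CPM. The log2 difference from the mean of the 10 other enhancers was -2.65 ± 0.29 (adjusted p = 2.11e-08, limma). Pcdhgc5 was 33.3 ± 11.4 CPM there (2.04 ± 0.37, adjusted p = 5.71e-05) and 27.2 ± 6.26 in eHGT_058h (1.77 ± 0.37, adjusted p = 0.000368), where 76.7% of cells were glutamatergic. Beside these, 5 more members were lower in eHGT_078h: Pcdha1, Pcdhb8, Pcdhb3, Pcdhb10 and Pcdhb21, with log2 differences of -1.03 to -1.39. Each of those 5 calls ended without eHGT_078h mouse 1, and with pseudocount 10, and the difference of Pcdhb21 ranged from -1.91 to -0.40 with single mice left out. That made 7 of 54 members called, 1 higher and 6 lower, beside 14.4% of all genes (8.99% higher and 5.36% lower).

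In eHGT_017h, where 51.7% of cells were Sst, 5 of 54 members were higher and none lower, beside 5.19% of all genes (3.78% higher and 1.41% lower). Pcdhga12 was 8.49 ± 1.96 CPM against 2.91 over the other enhancers (log2 1.42 ± 0.33, adjusted p = 0.00339, limma). Pcdhgc4 was 33.3 ± 6.29 against 17.8 CPM (1.13 ± 0.29, adjusted p = 0.00856), below the limit without eHGT_017h mouse 1 (0.99). Pcdhga4, Pcdhgb7 and Pcdhb19 were called with log2 differences of 1.52, 1.04 and 1.19, and each call ended when either of eHGT_017h mice 1 and 2 was left out. Those of Pcdhgb7 and Pcdhb19 also ended without eHGT_017h mouse 3, and that of Pcdhb19 without eHGT_082h mouse 2. The median over members was 0.39, against 0.01 over all genes.

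In eHGT_019h, where 64.8% of cells were Lamp5, 4 members were higher and none lower, beside 9.62% of all genes (5.78% higher and 3.83% lower). Pcdhb7 was 31.6 ± 13.2 CPM against 8.88 (log2 1.85 ± 0.41, adjusted p = 0.000971, limma) and Pcdhgc3 6.84 ± 2.14 against 1.59 (1.68 ± 0.26, adjusted p = 1.17e-05). Pcdhb16 (1.43) and Pcdhb18 (1.05) were called with smaller differences, which ended without eHGT_019h mouse 2 or 3 in the case of Pcdhb16 and without any of 12 mice in that of Pcdhb18. In eHGT_140h Pcdhac2 was higher (1.01 ± 0.33, adjusted p = 0.0408) and Pcdhga12 lower (-1.42 ± 0.33, adjusted p = 0.00378), beside 5.4% of all genes (1.44% higher and 3.97% lower). The Pcdhac2 call ended without any of 14 mice, and also without the hDLXI56i mice. That of Pcdhga12 ended without eHGT_140h mouse 2 (values from -1.65 to -1.10).

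The remaining calls were Pcdha12 in eHGT_058h (1.16 ± 0.38, adjusted p = 0.0182, limma), Pcdhb3 in eHGT_064h (1.20 ± 0.33, adjusted p = 0.0208) and Pcdhga12 in hDLXI56i (-1.001 ± 0.33, adjusted p = 0.0447). Of all genes, 12.5% were called in eHGT_058h (9.36% higher and 3.15% lower), 2.51% in eHGT_064h (0.676% higher and 1.84% lower) and 3.11% in hDLXI56i (2.34% higher and 0.766% lower). The call of Pcdha12 ended without eHGT_058h mouse 1 or 3 (lowest 0.81), that of Pcdhb3 without eHGT_064h mouse 1, 2 or 4, and that of Pcdhga12 without any of 21 mice (-1.64 to -0.63). No member was called in eHGT_023h, eHGT_079h, eHGT_082h or eHGT_128h (limma), beside 0.65%, 1.86%, 1.67% and 4.74% of all genes. At an unadjusted p under 0.05 there were 6, 7, 3 and 5 members, and voom called 0, 2, 0 and 1. The enhancer contrasts share their comparison mice.

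Factors that shape the locus, and partners of the proteins, were read from 3 lists. None of 18 genes for chromatin architecture and silencing (among them Ctcf, Rad21, Smchd1 and Dnmt3b) was called in any class contrast by limma or by voom, although 2, 10, 6, 7 and 7 had an unadjusted p under 0.05 in glutamatergic, Pvalb, Sst, Vip and Lamp5 contrasts. With differences below the fold limit, 1, 8, 1, 5 and 5 had an adjusted p under 0.05. Their median log2 difference was -0.26 in Pvalb and 0.29 in Vip. By the F test between enhancers, which has no fold limit, 8 of the 18 were called, beside 53.4% of all genes.

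Of 18 intracellular partners and processing genes, 5 were higher and 1 lower in glutamatergic cells, beside 10.7% and 4.66% of all genes. Ptk2b, a focal adhesion family kinase that protocadherins bind, was 461.1 ± 143.4 CPM there (n = 9), with a log2 difference of 4.44 ± 0.25 (adjusted p = 2.33e-22, limma). In Pvalb cells Ptk2b was 1.07 ± 1.52 CPM (n = 21), -4.71 ± 0.21 from the other interneuron classes (adjusted p = 9.51e-27). Ptk2, the related kinase, differed by 1.93 ± 0.14 (adjusted p = 1.52e-17) in glutamatergic cells and Nlgn1, a synaptic adhesion protein, by 2.23 ± 0.19 (adjusted p = 1.44e-15). Marcks, a membrane-bound actin regulator, was 2.04 higher in log2 in glutamatergic cells, and among interneurons higher in Sst (2.63) and Vip (2.62) and lower in Pvalb (-2.12) and Lamp5 (-3.13). Wasf1, of the WAVE complex that binds protocadherins, was lower in Pvalb (-1.82 ± 0.09, adjusted p = 1.80e-24).

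Of 12 non-clustered protocadherins, related genes outside the clusters, 11 were tested, and 4 were higher and 4 lower in glutamatergic cells, beside the same 10.7% and 4.66% of all genes. Their median share of cells was 59.3%, against 9.24% for alternate isoforms. Pcdh15 was higher in glutamatergic cells (log2 1.93 ± 0.23, adjusted p = 4.94e-10, limma), and Pcdh18 (-3.06 ± 0.38, adjusted p = 7.78e-10) and Pcdh11x (-1.91 ± 0.26, adjusted p = 1.00e-08) lower. Pcdh20 was 194.2 ± 97.4 CPM in Vip cells (n = 4), 5.81 ± 0.57 above the other classes (adjusted p = 3.69e-12). Pcdh18 was higher in Sst (2.84 ± 0.36, adjusted p = 3.32e-09), and Pcdh7 lower in Lamp5 (-3.74 ± 0.30, adjusted p = 1.09e-15).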

How the data were processed

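Single-cell RNA-seq was measured in 1483 cells of 33 mice, each cell a GEO sample. The deposited table holds CPM that the authors computed per cell. Per the submitters' processing notes, STAR was used with mm10. Neither the counting program nor the gene annotation is stated in the labels. Each cell's values were integer multiples, to 0.01 read, of the value of 1 read, which gave totals of 17123364 to 35856031 reads per mouse. Reads carry no molecular identifiers, so limits from counts of 0 cover counting error only.

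CPM were averaged per mouse, or per class in a mouse with at least 5 cells. limma 3.58.1 (trend, robust, statmod 1.5.0, R 4.3.3) was fitted to log2(mean CPM + 1) for genes with 1 CPM in 2 profiles, with a random mouse block for classes (correlation 0.0807). Calls needed an adjusted p under 0.05 over all genes and, except for the F test, a log2 difference of at least 1. The fit was tested on simulated data. Isoforms per cell and summed levels were not tested. Whether mice of a group shared litters or days is not given.

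The members, lists and tests were chosen with earlier results of these data known. Some isoforms (among them Pcdhb12, Pcdhb17, Pcdhb13 and Pcdha1) were named for detection, length or co-detection after their values were seen. Otherwise the text names the C-types, the highest and lowest isoform per set, up to 8 called members per test and up to 3 list genes per test. Pcdha8 was named in addition, and so were Marcks in the glutamatergic contrast and 4 genes that identify the architecture list, chosen after their values were seen. The planned count model was replaced by limma, and limma voom was added as an alternative after the data were seen. No doublet caller was run. Numpy 2.4.6, pandas 2.3.3, scipy 1.17.1 and matplotlib 3.10.9 were used.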

Additional observations from a re-analysis of the deposited data

Results flagged for a closer look

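In 28 groups of 4 to 10 mice, 3 held a mouse far from the others, and chance gives about 1 in 20 groups. In the Vip class, Pcdhac1 was 11.1 CPM in eHGT_017h mouse 3 and 0 in the other 3 mice. In eHGT_064h, Pcdhac1 was 5.86 CPM in mouse 4, against 4.001 to 4.26 in the other 3. In the same enhancer, Pcdhgc5 was 19.4 CPM in mouse 1, against 2.56 to 4.50 in the others.

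Outside the members, the columns Pcdha4-g, Pcdha6-g and Pcdha7-g had reads in 59, 62 and 59 of 1483 cells, while the members Pcdha4, Pcdha6 and Pcdha7 were at 0. What distinguishes these columns is not given in the sources used here.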

How the results depend on the processing

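Calls of low isoforms depended on the pseudocount. Members called by class were 7 for glutamatergic cells, and became 2 with pseudocount 10, 4 with mouse as a fixed effect and 12 with voom. For the 4 interneuron classes together the count was 28, 2 with pseudocount 10 and 20 with mouse as a fixed effect. Calls of 1 enhancer against the others numbered 22, and became 36 with pseudocount 0.1, 4 with pseudocount 10, 11 without a filter on low values and 38 with voom. The enhancer fit was also run with the letter G or J of the library names as a covariate. It ended the calls of Pcdhb19 and Pcdhgb7 in eHGT_017h, Pcdhb18 in eHGT_019h and Pcdhga12 in hDLXI56i, and that of Pcdhb14 by the F test. The class fit was not run with the letter. Glutamatergic profiles came from mice of both letters, while all Vip and Lamp5 profiles came from mice with G. The part of the letter in the class contrasts was not tested. Leaving out each mouse in turn gave 5 to 8, 22 to 29 and 19 to 29 calls. For the F test, 11 members became 10 to 15. Isoforms per cell moved from 7.17 to 5.45 at 10 CPM, and were 7.11 to 7.28 with a mouse left out. The summed level was 249.2 to 256.4 CPM with a mouse left out.

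Of 35 class calls, 4 held under all alternatives and with any mouse left out: Pcdhgc4 and Pcdhgc5 in glutamatergic cells, Pcdhac2 in Pvalb and Pcdhb7 in Lamp5. A further 5 were lost with pseudocount 10 alone. Pcdhgb6 in Vip cells reversed, to -0.13, with at least 10 cells per profile, where the class is 1 mouse assumed to vary like the others. The cause of these changes was not tested. The planned edgeR alternative was not run. Without the hDLXI56i mice, a setting added after the data were seen, 12 members were called by the F test and 7 in glutamatergic cells. Calls of 1 enhancer against the others then numbered 23, and those of the 4 interneuron classes together 24. Enhancers could not be paired, since each mouse carried 1 enhancer. Classes were paired by the fixed effect of mouse only where a mouse had profiles of several classes. Depth limits detection of alternates: in the median cell 1 read is 1.71 CPM.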

Other observations

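Glutamatergic cells were divided by Rorb and Fezf2 at 10 CPM, as a description without a test. Pcdhgc5 was 45.9 ± 15.7 CPM in cells with neither gene (n = 7 mice), 25.3 ± 14.5 in cells with both (n = 5), 19.4 ± 14.4 with Rorb alone (n = 5) and 18.3 ± 8.99 with Fezf2 alone (n = 3). The ranges overlapped, at 23.2 to 64.1, 12.4 to 47.8, 6.85 to 43.99 and 10.45 to 28.1 CPM. Pcdhgc4 was at 0 in cells with Rorb alone in the 5 mice with enough of them, and 3.08 ± 4.09, 2.01 ± 1.29 and 0.653 ± 1.46 CPM in cells with both, with Fezf2 alone and with neither. Pcdha12 was detected in 34.9% of cells with both, 30.97% with Fezf2 alone, 27.8% with neither and 25.5% with Rorb alone (means over mice), with SDs of 9.82 to 19.02 percentage points.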
